A study of Mus musculus with 2 samples.

Results

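Myc, Mycn, Mycl, Max, Mxd1, Mxd4, Mxi1 and Mnt encode the core of the MYC transcription factor network, and these 8 genes, chosen by name among the 31053 genes of the expression matrix, were followed in LSK cells (lineage-negative, Sca-1 and c-Kit positive), the bone marrow compartment of hematopoietic stem cells (HSCs) and multipotent progenitors. The cells came from C57BL/6JRj mice of 2 ages, old (22 to 28 months) and young (3 to 5 months), without any further treatment or transgene, and the 4 mice of each age were pooled into 1 CITE-Seq library. CITE-Seq reads the transcripts of a cell together with antibody-derived tags (ADTs), here for CD150, CD48 and CLCA3A1, and both are counted as unique molecular identifiers (UMIs). The library of a cell is given by the suffix 1 or 2 of its barcode, and no source used here pairs a suffix with an age, so the suffixes are shown side by side and old and young are not compared.

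MYC family proteins (MYC, MYCN, MYCL) bind DNA only as dimers with MAX, at E-box sequences, and raise transcription of genes for ribosome production, nucleotide synthesis and cell cycle entry. The MXD proteins (MXD1, MXD4, MXI1) and MNT use the same partner and the same sites, but recruit the SIN3 and histone deacetylase repressors, so that the MYC to MXD balance at E-boxes is used to describe growth against quiescence. Stem cells are known to need Myc to leave the niche and differentiate.

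Of 4688 barcodes, 4068 had under 10% mitochondrial UMIs and over 1500 detected genes, and 3986 of these had tags. They were placed in 4 gates by splitting CD150 at the 75th and CD48 at the 25th percentile of each suffix. The CD150-high CD48-low gate, named here the stem gate, held 172 cells of suffix 1 and 383 of suffix 2 (median 12917 and 13477 UMIs). The CD150-low CD48-high gate, named the progenitor gate, held 912 and 1615 cells (median 16356 and 16320 UMIs). The CD150-low CD48-low gate held 204 and 250 cells, the CD150-high CD48-high gate 209 and 241. Levels are summed UMIs of a gate and suffix, scaled to 1000000 UMIs of all genes (CPM). With 1 library per age there is no replicate, no test was run, and every interval (95%, in brackets) covers counting error only.

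The stem and progenitor gates carried the transcripts their tags call for, but the stem gate less cleanly in suffix 1, and the progenitor gate of suffix 2 with markers of mature cells. Of the 6 stem markers with enough UMIs, 5 (Procr, Mecom, Fgd5, Ctnnal1 and Fhl1) were over 1.5-fold higher in the stem gate than in the progenitor gate in both suffixes, and all 7 measured progenitor markers were lower. The other was Hlf (1.19 and 1.80), while Slamf1, Hoxb5 and Vwf were under the UMI minimum. In the stem gate of suffix 1, however, 8 progenitor markers summed to 385 CPM against 142 CPM in suffix 2, and 10 mitosis markers to 282 against 30.4 CPM. The median CD150 tag count there was 189 against 775, and the median CD48 tag count 111 against 20. Other gates also differed in tags between the suffixes. In the CD150-high CD48-high gate the median CD48 tag count was 464 in suffix 1 and 78 in suffix 2. In the CD150-low CD48-low gate the median CD150 tag count was 4.47 in suffix 1 and 84.5 in suffix 2. In the CD150-low CD48-low gate of suffix 1, 5 lymphoid markers summed to 2188 CPM against 29.9 CPM in suffix 2, with 5212 of the 5528 UMIs being Ighm in 1 cell. Without that cell, Dntt, Ighm and Satb1 were at 38.9, 27.3 and 60.6 CPM there, Il7r and Rag1 at 0, and Myc and Mycn at 161 and 51.8 CPM, beside 159 and 51.1 with it. In the CD150-high CD48-high gate, 5 erythroid and megakaryocyte markers summed to 85.9 CPM in suffix 1 and 303 CPM in suffix 2, the latter mostly Pf4 (1091 of 1348 UMIs, 467 of them in 1 cell), and their part in the levels of that gate was not tested. In the progenitor gate, 10 markers of mature cells summed to 485 CPM in suffix 1 and 4988 CPM in suffix 2. That gate of suffix 2 held 10 cells with over 1% immunoglobulin UMIs, and Ighm was at 785 CPM with them and 85.7 without. Myc and Mycn there were at 167 and 30.2 CPM without these cells, beside 165 and 30.1 with them. No barcode sequence was shared by the 2 libraries.

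**Figure D1:**
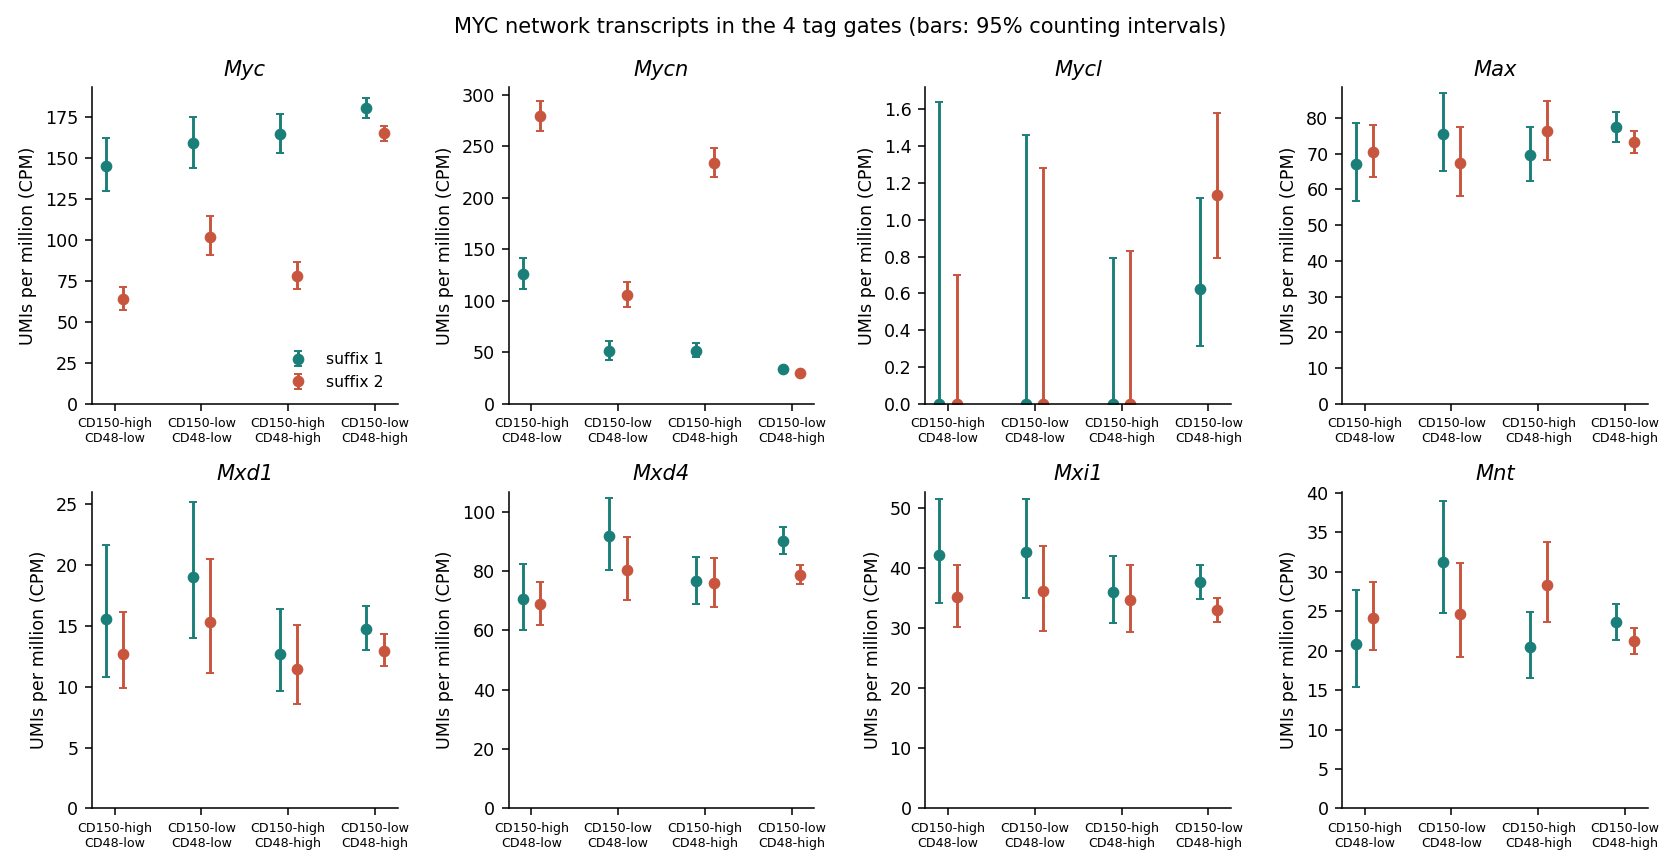
CPM of the 8 genes (y axes, from 0) in the 4 tag gates (x axis), with suffix 1 in green and suffix 2 in red; points are summed UMIs and bars are 95% counting intervals. Myc is lowest and Mycn highest in the CD150-high CD48-low gate of suffix 2 (64.0 and 279 CPM), whereas over all gates Max lies between 67.0 and 77.4, Mxd4 between 68.7 and 91.8, Mxi1 between 33.0 and 42.7, Mnt between 20.4 and 31.3 and Mxd1 between 11.5 and 19.0 CPM, and Mycl is at 0 outside the CD150-low CD48-high gate.

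Myc lies at chr15:61985391-61990374 (GRCm38, plus strand). In suffix 1 it measured 146 CPM (130 to 162) in the stem gate, 159 in the CD150-low CD48-low gate, 165 in the CD150-high CD48-high gate and 181 (174 to 187) in the progenitor gate. In suffix 2 the same order of gates gave 64.0 (57.3 to 71.2), 102, 78.3 and 165 CPM (161 to 170). Myc was thus lower in the stem gate than in the progenitor gate in both libraries, with intervals that do not overlap, and the gap was far wider in suffix 2. The ratio of stem to progenitor gate was 0.806 (0.717 to 0.904) in suffix 1, 0.387 (0.346 to 0.432) in suffix 2 and 0.518 (0.478 to 0.560) over both. The intervals of neighbouring gates overlapped in suffix 1. In suffix 2 the progenitor, the CD150-low CD48-low and the 2 CD150-high gates were apart, and only the intervals of the last pair overlapped.

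Mycn, at chr12:12936093-12941914 (GRCm38, minus strand), ran the other way. In suffix 1 it measured 126 CPM (111 to 141) in the stem gate, 51.1 in the CD150-low CD48-low gate, 51.6 in the CD150-high CD48-high gate and 33.3 (30.6 to 36.1) in the progenitor gate. In suffix 2 it measured 279 (265 to 294), 106, 234 and 30.1 CPM (28.2 to 32.1). Mycn was highest in the stem gate and lowest in the progenitor gate of each library, and the progenitor gates of the 2 libraries were within counting error of each other. The ratio of stem to progenitor gate was 3.78 (3.26 to 4.36) in suffix 1, 9.27 (8.54 to 10.1) in suffix 2 and 7.46 (6.96 to 7.996) over both. Among the 9789 genes with at least 100 UMIs in each suffix over both gates, this ratio ranked above 99.3% of genes in suffix 1 and 99.9% in suffix 2. Myc ranked above 24.6% and 6.14%. In suffix 2 the CD150-high CD48-high gate kept much of the Mycn level (ratio to the progenitor gate 7.76, 7.09 to 8.49), in suffix 1 little of it (1.55, 1.33 to 1.80). The median CD48 tag count of that gate was 78 in suffix 2 and 464 in suffix 1. Its stem markers summed to 924 CPM in suffix 2 and 625 in suffix 1, and its mitosis markers to 344 and 1343 CPM. The part of this makeup in the Mycn levels was not tested.

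The start of Mycn is shown because, among the 7 members with a RefSeq promoter, it alone holds the sequence marked here. Within 250 bases before to 50 after the RefSeq start, Mycn has 2 copies of TTTGGCGC, a sequence of the E2F type, the factors that couple transcription to S phase entry. They begin 183 and 168 bases before the start. On either strand, 0.514% of 32851 RefSeq mouse promoters of this length (GRCm38.p6) hold TTTGGCGC. In the following stretch, at chr12:12941975-12942034, minus strand, the capitals mark both copies:
Mycn: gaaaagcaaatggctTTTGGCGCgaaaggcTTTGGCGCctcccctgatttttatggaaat

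Mycl, at chr4:122995652-123002485 (plus strand), was nearly silent. It gave 0 UMIs in 6 of the 8 combinations of gate and suffix, which allows up to 1.33 CPM in the stem gate of suffix 1 and 0.570 in that of suffix 2 (3 counts per library). The progenitor gate held 11 UMIs (0.624 CPM) in suffix 1 and 35 (1.13 CPM) in suffix 2, with up to 10 UMIs in a single cell.

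Max, the shared partner, at chr12:76937269-76962201 (minus strand), was level. It measured 67.0, 75.6, 69.6 and 77.4 CPM in suffix 1 and 70.4, 67.4, 76.3 and 73.3 CPM in suffix 2 (stem, CD150-low CD48-low, CD150-high CD48-high, progenitor). No gate stood apart from its neighbours beyond the counting intervals. The ratio of stem to progenitor gate was 0.928 over both suffixes (0.845 to 1.02), and it held for Max in each suffix that the interval of this ratio includes 1.

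Mxd4, which gave the most UMIs of the MXD genes on this 3′ assay, lies at chr5:34173883-34187720 (minus strand). It measured 70.6, 91.8, 76.5 and 90.1 CPM in suffix 1 and 68.7, 80.2, 75.8 and 78.7 CPM in suffix 2. The stem gate was the lowest in each library, by little: the ratio to the progenitor gate was 0.783 (0.661 to 0.922) and 0.873 (0.780 to 0.976).

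Mxi1, at chr19:53310518-53375810 (plus strand), measured 42.2, 42.7, 36.1 and 37.6 CPM in suffix 1 and 35.1, 36.1, 34.6 and 33.0 CPM in suffix 2. Mnt, which unlike the MXD genes is made in most cells whether they divide or not, lies at chr11:74830920-74845725 (plus strand) and measured 20.9, 31.3, 20.4 and 23.6 CPM in suffix 1 and 24.1, 24.7, 28.3 and 21.2 CPM in suffix 2. Mxd1, a repressor known from differentiating myeloid cells, at chr6:86647042-86669161 (minus strand), was rare, with 15.5, 19.0, 12.7 and 14.7 CPM in suffix 1 and 12.7, 15.3, 11.5 and 13.0 CPM in suffix 2. For these 3 repressors the stem to progenitor ratio over both suffixes was 1.07 (0.943 to 1.22) for Mxi1, 1.05 (0.887 to 1.23) for Mnt and 0.996 (0.801 to 1.23) for Mxd1. The intervals all include 1, and that of Mxd1, with 102 and 660 UMIs, is too wide to show a small difference. Mnt was above the progenitor gate elsewhere, at 1.33 (1.03 to 1.69) in the CD150-low CD48-low gate of suffix 1 and 1.33 (1.09 to 1.62) in the CD150-high CD48-high gate of suffix 2, though at 1.16 (0.896 to 1.49) and 0.866 (0.685 to 1.08) in the same gates of the other suffix.

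The E-box CACGTG, which reads alike on both strands, lies in the 300-base promoter window of Max, Mxd4 and Mnt, 3 of the 7 members with a RefSeq promoter, and in 7.15% of all such windows. Myc was not matched. In Max the first base of the E-box is 3 bases before the start, in Mnt 123 and in Mxd4 219. The windows below lie at chr12:76962234-76962263 (minus), chr5:34187897-34187956 (minus) and chr11:74830774-74830833 (plus) of GRCm38.p6, with the E-box in capitals. They are shown because they are the members whose windows hold the E-box.
Max: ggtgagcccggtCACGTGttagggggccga
Mxd4: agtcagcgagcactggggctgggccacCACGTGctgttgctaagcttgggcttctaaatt
Mnt: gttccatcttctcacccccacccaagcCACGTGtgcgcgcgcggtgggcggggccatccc

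**Figure D2:**
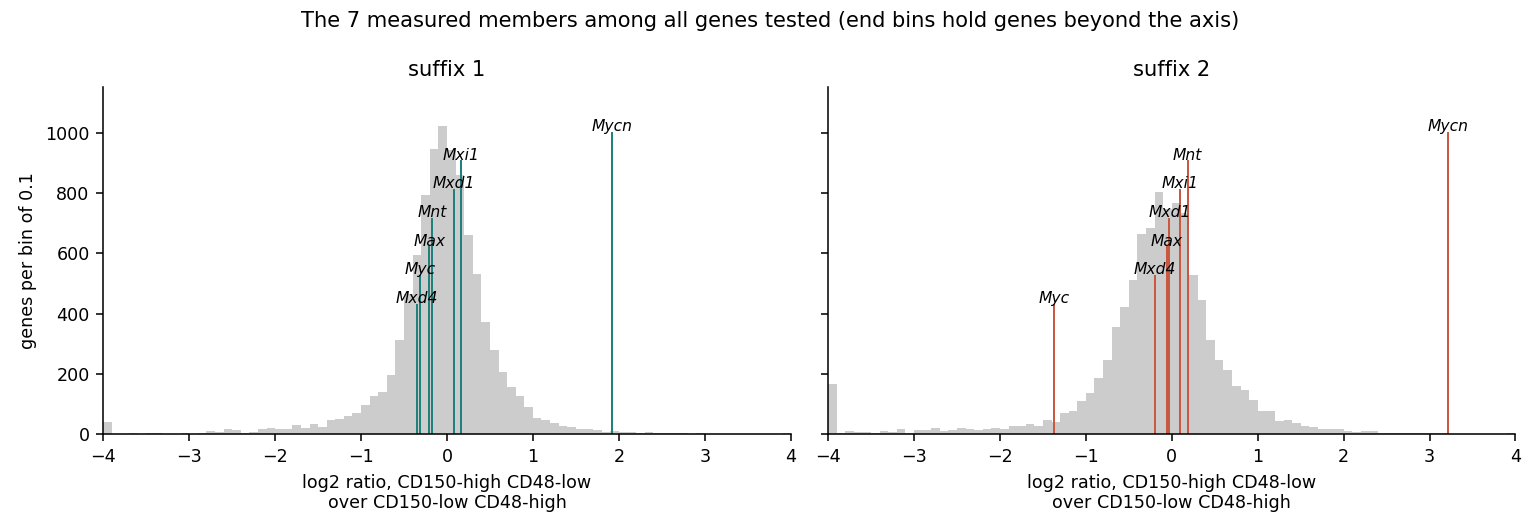
Number of genes (y axis) by log2 ratio of CPM in the CD150-high CD48-low gate over the CD150-low CD48-high gate (x axis, bins of 0.1), for suffix 1 (left) and suffix 2 (right), with lines at the 7 members that had enough UMIs. Mycn stands at 1.92 and 3.21 and Myc at -0.31 and -1.37, with the other 5 members in the main body of genes; line heights only separate the names.

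Calling a gene when its CPM differed by over 1.5-fold in the same direction in both suffixes, 1 of the 7 members with enough UMIs was called, Mycn as higher, against a background of 6.55% of 9789 genes called higher and 9.44% called lower. Myc passed the limit in suffix 2 and not in suffix 1. Of the other network genes, none of them members, Mga, a MAX partner with a T-box domain, had a ratio of 1.16 (1.01 to 1.33) in suffix 1 and 1.13 (1.02 to 1.25) in suffix 2. Mlx was at 0.883 (0.738 to 1.05) over both, and Mlxip at 0.853 (0.597 to 1.19) and 1.31 (1.07 to 1.59) in the 2 suffixes, while Mlxipl gave 4 and 11 UMIs. Mxd3, an MXD gene made in S phase, measured 1.78 and 12.2 CPM in the stem and progenitor gates of suffix 1, and 0 UMIs and 10.6 CPM in those of suffix 2, a ratio of 0.0477 (0.0129 to 0.123) over both. The mitosis markers moved with Mxd3, all 10 being called lower in the stem gate, and their part in the Mxd3 ratio was not tested. With cells limited to under 5% mitochondrial UMIs and over 2500 genes and the tag percentiles set again on the cells left, which gave 57 stem and 238 progenitor gate cells, the Mxd3 ratio was 1.28 (0.552 to 2.64) in suffix 1 and 0.810 (0.311 to 1.79) in suffix 2. Only 23 of those 57 were stem gate cells under the tag limits of all cells. With these limits held, a setting chosen after seeing the data, 1 Mxd3 UMI was found in the 23 stem gate cells and 110 in 293 progenitor gate cells (ratio 0.190, 0.00477 to 1.08).

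Along the tags themselves, the 2 paralogs crossed. By quintiles of the CD48 tag from low to high, Myc in suffix 2 measured 76.2, 96.6, 137, 160 and 182 CPM and Mycn 223, 162, 88.9, 34.4 and 13.5 CPM. Each step of CD48 in suffix 2 thus went with more Myc and less Mycn. In suffix 1 Myc measured 148, 165, 168, 200 and 172 CPM and Mycn 97.1, 46.2, 51.2, 39.6 and 22.8 CPM, the same directions from the first to the last quintile but with steps out of order. By quintiles of the CD150 tag, Mycn stayed between 17.6 and 35.8 CPM in the lowest 3 quintiles of suffix 2 and then reached 111 and 283 CPM, as Myc went from 175 in the lowest to 68.1 CPM in the highest. In suffix 1 only the highest CD150 quintile stood out, with Mycn at 87.2 against 31.0 to 42.2 CPM in the other 4. Median depth moved with CD48, from 12335 UMIs in the lowest to 25360.5 in the highest quintile of suffix 2, and not in order with CD150 (15597 to 14339 UMIs).

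**Figure D3:**
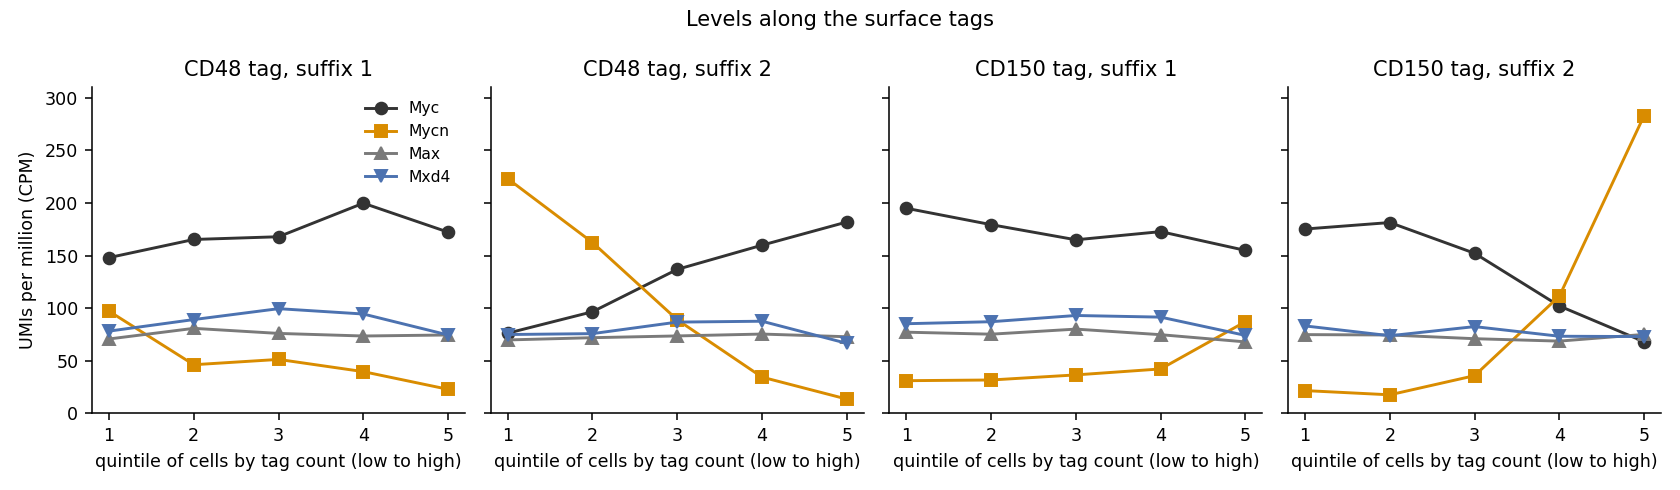
CPM (y axis, from 0) of Myc, Mycn, Max and Mxd4 in quintiles of cells ordered by CD48 (2 left panels) or CD150 (2 right panels) tag count, per suffix. In suffix 2 Mycn goes from 223 to 13.5 CPM and Myc from 76.2 to 182 CPM as CD48 rises, and the lines of Max and Mxd4 stay between 66.5 and 87.5 CPM there.

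The balance was taken as the summed UMIs of Myc, Mycn and Mycl per summed UMI of Mxd1, Mxd4, Mxi1 and Mnt. In suffix 1 it was 1.82 (1.59 to 2.08) in the stem gate, 1.14 (1.002 to 1.29) in the CD150-low CD48-low gate, 1.49 (1.35 to 1.64) in the CD150-high CD48-high gate and 1.29 (1.23 to 1.36) in the progenitor gate. In suffix 2 it was 2.44 (2.24 to 2.66), 1.33 (1.17 to 1.51), 2.08 (1.89 to 2.28) and 1.35 (1.30 to 1.40). The transcript balance therefore lay further to the MYC side in the stem gate than in the progenitor gate, in both libraries. The ratio of the 2 balances was 1.41 (1.22 to 1.62) in suffix 1, 1.81 (1.65 to 1.99) in suffix 2 and 1.70 (1.57 to 1.83) over both. The MYC sum was 271 against 215 CPM in suffix 1 and 343 against 196 CPM in suffix 2, and the MXD sum 149 against 166 and 141 against 146 CPM (ratios 0.898, 0.800 to 1.01, and 0.964, 0.891 to 1.04).

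The direction of the balance depended on Mycn. With Myc alone in the numerator, the value in the stem gate was 0.976 in suffix 1 and 0.455 in suffix 2, against 1.09 and 1.13 in the progenitor gate, so the order of the gates turned. With Mycn alone it was 0.842 and 1.99 against 0.200 and 0.206. Of all Myc and Mycn UMIs, Mycn made up 46.3% (42.3 to 50.4) in the stem gate of suffix 1 and 81.4% (79.5 to 83.1) in that of suffix 2, but 15.6% and 15.4% in the progenitor gates. Equal UMI numbers of different genes need not be equal amounts of protein or of transcript, so the balance is read only between gates. It also depends on the cell filter and the tag limits: with under 5% mitochondrial UMIs and over 2500 genes, and the percentiles set again on the cells left, the log2 ratio of the balances was -0.23 instead of 0.76. In those cells Mycn measured 64.9 CPM in the stem gate and 29.3 CPM in the progenitor gate of suffix 1 (ratio 2.21, 1.34 to 3.55), and 158 and 8.15 CPM in suffix 2 (19.4, 12.7 to 30.3). Myc measured 141 and 207 CPM in suffix 1 and 84.9 and 184 CPM in suffix 2. The MYC sum had a ratio of 0.861 (0.669 to 1.09) in suffix 1 and 1.21 (1.01 to 1.45) in suffix 2. The MXD sum had a ratio of 0.896 (0.639 to 1.23) in suffix 1, where it was 119 against 133 CPM, and of 1.52 (1.21 to 1.91) in suffix 2, where it was 163 against 107 CPM. With the same cell filter but the tag limits held, the log2 ratio was 0.42 on 23 stem gate cells. There the MYC sum had a ratio of 0.939 (0.668 to 1.29) in suffix 1 and 1.58 (1.17 to 2.11) in suffix 2, and the MXD sum 0.730 (0.428 to 1.17) and 1.14 (0.702 to 1.77).

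**Figure D4:**
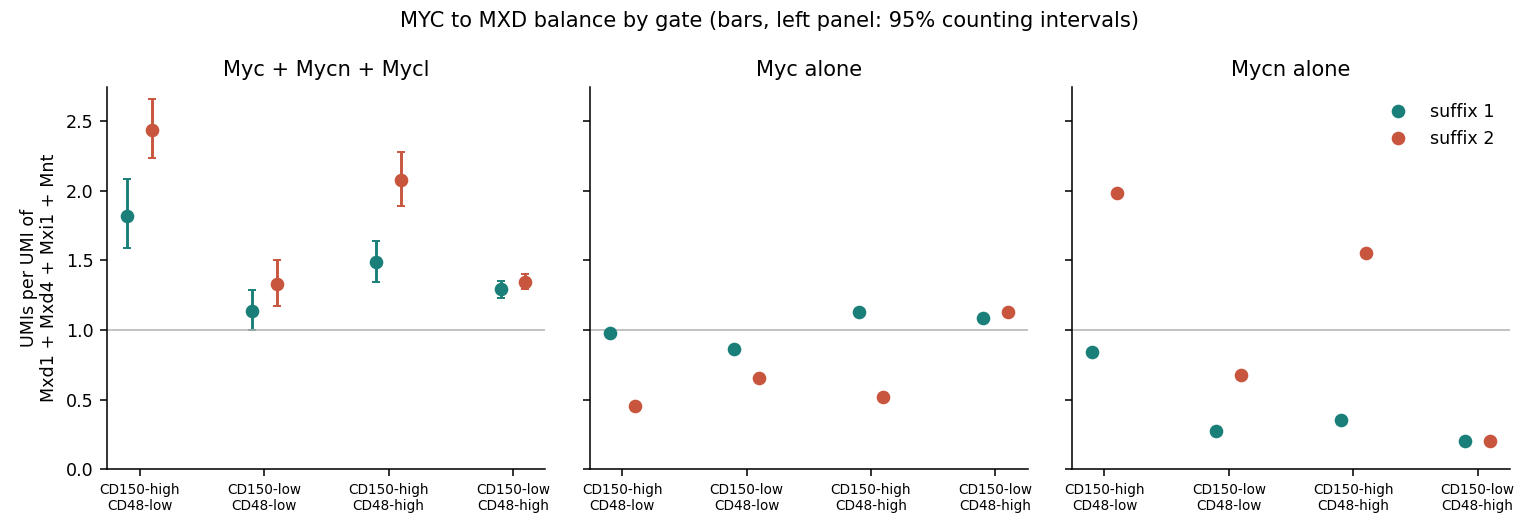
UMIs of all 3 MYC genes (left), Myc alone (middle) and Mycn alone (right) per UMI of Mxd1, Mxd4, Mxi1 and Mnt (y axis, from 0) in the 4 gates; suffix 1 green, suffix 2 red, bars 95% counting intervals, grey line at 1. The CD150-high CD48-low gate is at 1.82 and 2.44 on the left, at 0.976 and 0.455 in the middle.

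Myc and Mycn kept their opposite directions among cells of like depth. When cells were placed in 4 bins by UMIs (limits 12168.5, 14968 and 21488.8), the stem to progenitor ratio of Myc over both suffixes was 0.622, 0.505, 0.458 and 0.347 from the shallowest to the deepest bin, and that of Mycn 4.29, 5.20, 6.40 and 8.91. For Myc, suffix 2 was at 0.518, 0.363, 0.322 and 0.379, and suffix 1 at 0.790, 0.838, 0.815 and 0.284. In suffix 1 the Myc intervals of the 2 gates overlapped in the first 3 bins, and the 0.284 rests on 6 UMIs in 5 stem gate cells. The pooled rise of Mycn came from suffix 2, at 4.95, 6.06, 7.74 and 14.0, whereas suffix 1 was at 3.19, 2.50, 2.87 and 1.33. The 1.33 rests on 4 UMIs in 5 stem gate cells (32.1 CPM, 8.73 to 82.1, against 24.1 CPM in the progenitor gate), so Mycn in suffix 1 was apart from the progenitor gate in the first 3 bins only. The balance ratio over both suffixes went from 2.29 and 2.04 to 1.51 and 1.15, with only 17 stem gate cells in the deepest bin. It was 2.33, 1.30, 1.22 and 0.682 in suffix 1 and 2.26, 2.49, 1.61 and 1.20 in suffix 2. Both sums moved over the bins, the ratio of the MYC sum being 1.58, 1.52, 1.35 and 1.26 and that of the MXD sum 0.689, 0.745, 0.899 and 1.09. In the deepest bin the MXD sum ratio was 0.607 in suffix 1 and 1.38 in suffix 2, with intervals of the 2 gates that overlap in each library. The suffix 1 values, with the balance ratio of 0.682, rest on 10 MYC and 11 MXD UMIs in 5 stem gate cells. There the MXD sum was 88.2 CPM (44.0 to 158) against 145 CPM (138 to 153) in the progenitor gate. Per depth bin, Mxd4 was lower in the stem gate in the first 3 bins (0.607, 0.626 and 0.731). In the deepest bin Mxd4 was at 0.559 in suffix 1, on 5 stem gate UMIs, and at 1.38 in suffix 2, on 23.

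Thinned to 9000 UMIs per cell, which left 519 of 555 stem gate and 2435 of 2527 progenitor gate cells, a Mycn UMI was found in 50.0% (41.9 to 58.1) of stem gate cells of suffix 1 and 78.5% (73.9 to 82.6) of suffix 2, against 23.2% and 21.3% of progenitor gate cells. Myc UMIs were found in 57.7% and 34.99% against 66.3% and 67.2%. At 3 or more UMIs, Mycn separated the gates more sharply, with 16.0% and 41.9% of stem gate cells against 2.28% and 2.19% of progenitor gate cells. Without thinning, 64.5% and 44.1% of stem gate cells held a Myc UMI. No gated population is known to lack Mycn, so free RNA was not measured apart from expression.

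The 2 paralogs were found in the same cells about as often as their shares multiply to. In the stem gate 27.6% and 26.997% of cells held both a Myc and a Mycn UMI, where the product of the shares is 28.8% and 27.5%. In the progenitor gate 14.2% and 14.4% did, beside products of 15.4% and 14.3%. Among stem gate cells of suffix 2, Mycn was found in 77.2% of cells with a Myc UMI and in 79.2% of those without. In suffix 1 the same shares were 47.8% and 53.0% in the stem gate and 21.4% and 26.7% in the progenitor gate, and in the progenitor gate of suffix 2 21.4% and 20.9%. Per cell, more MYC than MXD UMIs were counted in 53.2% and 63.9% of stem gate cells and in 44.3% and 43.4% of progenitor gate cells.

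**Figure D5:**
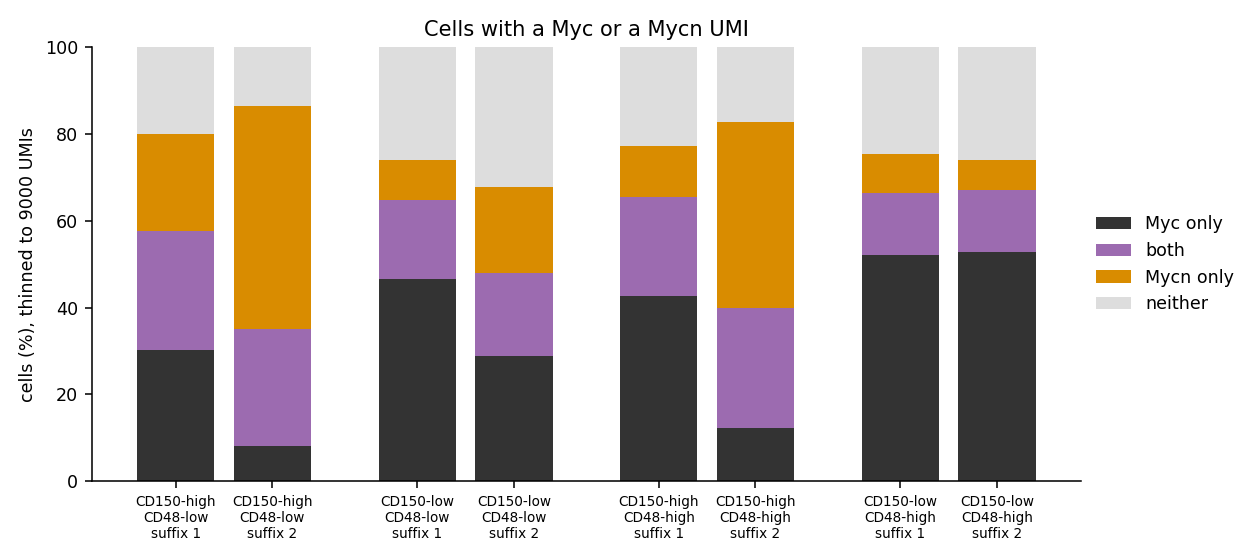
Share of cells (y axis, in %, thinned to 9000 UMIs) with a UMI of Myc only, of both, of Mycn only, or of neither, for each gate and suffix. The share with Mycn only is 22.4% and 51.5% in the CD150-high CD48-low gate and 8.99% and 6.88% in the CD150-low CD48-high gate, and the share with both is 27.6% and 26.997% in the former.

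Among the members, Myc and Mycn were the 2 past 1.5-fold between the stem gates of the 2 libraries. Suffix 2 over suffix 1 gave 0.439 (0.376 to 0.513) for Myc and 2.22 (1.956 to 2.53) for Mycn, where 7.32% of 7618 genes were over 1.5-fold lower and 5.43% over 1.5-fold higher (12.8% in either direction). The ratios of Max, Mxd1, Mxd4, Mxi1 and Mnt lay between 0.819 and 1.16 with intervals that include 1. In the progenitor gate Myc (0.915) and Mycn (0.905) differed by much less. Since the stem gate of suffix 1 also held more progenitor and mitosis marker UMIs and fewer CD150 tags, and each suffix is 1 library, the library, the age and the makeup of the gate cannot be told apart. When the stem gate was limited to cells with a Procr UMI and no Flt3 UMI, 100 and 346 cells, the Myc level was 147 CPM in suffix 1 and 63.3 in suffix 2 and the Mycn level 163 and 280 CPM. In the whole gate these were 146 and 64.0 for Myc and 126 and 279 CPM for Mycn. The Mycn levels of the 2 libraries thus lay closer together in the limited cells, and the Myc levels did not.

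Within the progenitor gate, Mycn varied more with lineage markers than Myc. Cells were split by Mpo, Dntt, Flt3, mitosis marker and Vwf UMIs after thinning to 9000 UMIs per cell, and the levels of the members were taken from the full counts of those cells. Cells with at least 3 UMIs of Mpo, a granule enzyme of myeloid progenitors, held Mycn at 13.3 CPM in suffix 1 and 10.5 in suffix 2, against 35.5 and 35.6 CPM in the other cells (ratios 0.375 and 0.293). Myc was at 192 and 200 against 180 and 155 CPM. By Dntt, a marker of lymphoid priming, the Mycn ratio of cells with to cells without it was 0.733 and 0.477. By Flt3 it was 0.942 and 0.461, and the first of these is within counting error of 1 (0.770 at the lower limit). Depth differed between these subsets, with a median of 25118 against 16088 UMIs by Mpo in suffix 1, and Mycn fell with depth within the progenitor gate. Set against cells of the same depth bin, a comparison chosen after seeing the data, the Mycn ratio was 0.456 and 0.405 by Mpo, 0.817 and 0.554 by Dntt and 0.945 and 0.510 by Flt3.

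Progenitor gate cells with 0 thinned UMIs of the 10 mitosis markers held more Mycn and more Mxd4 than cells with at least 1. Mycn was at 44.3 against 27.6 CPM in suffix 1 and 45.7 against 22.3 CPM in suffix 2, and Mxd4 at 115 against 78.4 and 105 against 66.4 CPM (ratios 1.47 and 1.58). Mxd4 is known as an MXD gene of cells that differentiate. Myc differed less, with ratios of 1.18 and 1.03. The cells without mitosis UMIs were shallower, with a median of 14138 against 23013 UMIs in suffix 1 and 13890 against 21839 in suffix 2. Set against cells of the same depth bin, the ratio was 1.09 and 1.20 for Mycn, 1.16 and 1.13 for Mxd4 and 1.10 and 0.961 for Myc. The bins differed: from the shallowest to the deepest, the Mycn ratio was 0.955, 1.01, 1.13 and 1.90 in suffix 1 and 0.827, 1.26, 1.23 and 2.55 in suffix 2. The deepest bin, where Mxd4 was at 1.43 and 1.37, held 278 and 467 of the cells with mitosis UMIs but only 26 and 46 of those without. Within the stem gate the same split gave Mycn ratios of 1.004 and 0.922 and Mxd4 ratios of 1.18 and 1.21, and the intervals of all 4 include 1. Comparing only cells without mitosis marker UMIs in their full counts, 404 stem and 876 progenitor gate cells, the log2 ratio of stem to progenitor gate was 2.41 for Mycn, -1.07 for Myc and -0.65 for Mxd4, against -0.26 for Mxd4 in all cells.

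Within the stem gate, cells with a Vwf UMI, von Willebrand factor being a marker of platelet-primed HSCs, held Mycn at 217 against 106 CPM in suffix 1 (27 and 129 cells) and 296 against 255 CPM in suffix 2 (234 and 129 cells). Above the median of the CLCA3A1 tag, the surface protein that the study follows on old HSCs, Mycn was at 168 against 78.96 CPM in suffix 1 and at 285 against 273 CPM in suffix 2 (ratios 2.13 and 1.04). That median was 25 tag counts in suffix 1 and 214 in suffix 2, so the 2 splits lie at unlike levels of the tag. Myc did not differ by this tag beyond counting error (ratios 0.938 and 1.03).

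Of 30 listed MYC targets, 9 were called lower in the stem gate (Nop56, Bop1, Cad, Ranbp1, Cdk4, Cdc25a, Tfrc, Shmt1 and Pa2g4) and 0 higher, beside 9.44% and 6.55% of all genes. Their median log2 ratio was -0.60, that of all genes -0.08. The ribosome factor Nop56 had a ratio of 0.539 (0.504 to 0.576), the nucleotide synthesis enzyme Cad 0.485 (0.400 to 0.584) and the nucleolar protein Ncl 0.669 (0.650 to 0.689). In both suffixes 27 of the 30 were below 1, and Ldha (1.06) and Ccnd2 (1.54), a D-type cyclin, were above. Of all 9789 genes tested, 4363 were below 1 in both suffixes and 3261 above. The mitosis markers moved with this list, and their part in it was not tested. The E-box CACGTG was in the RefSeq promoter windows of 9 of the 24 targets that matched, 37.5%, where 8.09% of 27025 genes hold it.

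Of 20 cofactors and turnover factors, 2 were called lower and 0 higher, with a median log2 ratio of -0.38, beside 9.44% and 6.55% of all genes, so the number called is near the background. The 2 were Skp2, a ubiquitin ligase subunit that targets MYC (0.447, 0.349 to 0.565), and Aurka, the mitotic kinase that steadies MYCN protein, which differed between the libraries (0.432, 0.282 to 0.636, in suffix 1 and 0.0409, 0.0150 to 0.0893, in suffix 2). The interval of the ligase gene Fbxw7 includes 1 (0.991, 0.852 to 1.15), and the deubiquitinase gene Usp28 was at 1.04 (0.620 to 1.67) in suffix 1 and 0.642 (0.407 to 0.972) in suffix 2. The corepressors of the MXD side differed, with Sin3b at 0.947 (0.881 to 1.02), Sin3a at 0.670 (0.578 to 0.773) and Hdac2 at 0.695 (0.635 to 0.760). Pim1, a kinase gene whose protein cooperates with MYC, was at 1.30 (1.26 to 1.35).

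Over the 8 combinations of gate and suffix, log2 levels of Myc and Mycn had a Pearson r of -0.925, a description of 8 points that share 2 libraries. Among 7464 genes with at least 1000 UMIs, the patterns most like Myc were those of Zcchc8 (r 0.994), Gng2 (0.991) and Coro1a (0.990). Those most like Mycn were Zcchc7 (0.990), Mindy1 (0.988) and Epb41l4b (0.988). For Mxd4 they were Mtdh, Vrk3 and Ofd1 (0.946 to 0.962), for Max Ibtk, Armc5 and Pias2 (0.881 to 0.908), for Mxi1 Atg2a, Vamp7 and Fbxo33 (0.963 to 0.971) and for Mnt Abhd4, Tmbim6 and Fbxw2 (0.946 to 0.970). Mycl and Mxd1 were under the UMI minimum.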

How the data were processed

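LSK cells of old and young mice were measured by CITE-Seq (10x 3′ v3), 1 library per age. The deposited matrix holds the UMI counts per gene and cell that the authors made with Cell Ranger (3.1.0 per the submitters' processing notes, which name mm10 and GRCm38) and combined with its aggregation step, which normalizes depth between libraries, so depths here are those after it. The deposited tag values are log10 of ADT counts, made by the authors with CITE-seq-Count, and 0 counts were placed below all others. The tag column named Clca1 is taken as CLCA3A1, read through an antibody to PE. The comparison of old with young was not run, since no source used here pairs suffix and age.

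Cells were filtered and gated as described, UMIs summed per gate and suffix with Python 3.11.15 (numpy 2.4.6, scipy 1.17.1, pandas 2.3.3), and given exact Poisson (levels), conditional binomial (ratios) and Clopper-Pearson (shares) 95% intervals. The interval of the ratio of balances is a normal approximation on the log scale. Genes entered calls with at least 100 UMIs per suffix. Likeness used log2(CPM + 10). Gene names are the 8 members, genes of counted lists and the 3 genes most like each member. Members and lists were chosen with earlier results of these data known. A stem marker of the list is not reported here. Doublets called by scrublet (scanpy 1.11.5, expected rate 0.06), 5 and 32 cells, were kept in the main values and left out in an alternative. Ratios and their intervals were tested on simulated Poisson counts, the model that the intervals assume, so this could not show spread between cells. In thinned stem gate cells the variance over the mean of UMIs was 3.01 and 2.33 for Mycn and 1.98 and 1.88 for Myc (suffix 1 and 2). That is above Poisson counts, and the intervals do not cover this spread. Locations are from GENCODE (GRCm38), promoter sequences from RefSeq (GRCm38.p6). Max, Mxd1, Mxd4 and Mxi1 overlap predicted genes.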

Additional observations from a re-analysis of the deposited data

How the results depend on the processing

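No paired analysis was possible because each age is 1 library and the labels give no pairing. The log2 ratio of the balances (0.76 in the values reported) turned to -0.23 with under 5% mitochondrial UMIs and over 2500 genes, where the tag percentiles were set again on the cells left, and to -0.85 with Myc alone. It was 0.49 in suffix 1 alone, 0.62 with CD150 at the 65th and CD48 at the 35th percentile, 0.96 in cells with 0 mitosis marker UMIs, 3.00 with Mycn alone and 0.42 under the stricter cell filter with the tag limits held, the last 2 chosen after seeing the data. The number of members past 1.5-fold (1) was 2 in suffix 2 alone, at the 85th and 15th percentiles, as the mean over depth bins and in cells with 0 mitosis marker UMIs, and 0 under the stricter cell filter with the percentiles set again or the limits held, where few UMIs were left. The cause of these moves was not tested, apart from the change of genes or cells that each setting makes. Over 15 alternatives, the log2 ratio of Myc lay between -1.37 and -0.31 and that of Mycn between 1.92 and 3.21. Those of Mxd1 (-0.26 to 0.10), Mxd4 (-0.65 to 0.24), Mxi1 (-0.22 to 0.60) and Mnt (-0.83 to 0.18) fell on both sides of 0. Leaving out doublets, cells with over 1% immunoglobulin UMIs (11 in the progenitor gate) or stem gate cells without Procr or with Flt3, the last 2 settings chosen after seeing the data, kept the balance between 0.76 and 0.84. Taking the splits of the progenitor gate among cells of like depth, also chosen after seeing the data, lowered the log2 ratio by mitosis markers from 0.68 to 0.13 (suffix 1) and from 1.04 to 0.27 (suffix 2) for Mycn, as a mean over bins that differed.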
